A study of Cucumis sativus with 12 samples.

Results

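The genes described here bear the names of families that build, modify or move lipids, many of them lipids of plant surfaces. They were taken from a gene expression table of cucumber (Cucumis sativus) stigma and style by the Swiss-Prot protein name that the table gives each gene: 3-ketoacyl-CoA synthases, ECERIFERUM proteins, acyl-CoA reductases, WSD acyltransferases, glycerol-3-phosphate acyltransferases, GDSL esterase/lipases and lipid-transfer proteins. Of 24345 genes, 130 had such a name. Of these, 26 had fewer than 30 reads over all libraries and 2 were set aside by the selection rule, which left 102 members. They comprised 55 GDSL esterase/lipases, 12 3-ketoacyl-CoA synthases (KCS), 9 lipid-transfer proteins (LTP), 7 lysophosphatidic acid acyltransferases (LPAT), 6 glycerol-3-phosphate acyltransferases (GPAT), 6 fatty acyl-CoA reductases (FAR), 3 ECERIFERUM (CER) proteins, 2 3-oxoacyl-CoA reductases (KCR) and 2 WSD wax ester synthases. The Swiss-Prot names rest on similarity to proteins of other species, mostly Arabidopsis.

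RNA was sequenced from 4 genotypes at anthesis, the opening of the flower, with 3 biological replicates each. The genotypes were the single mutants Csspt-/- and Csalc-/-, the double mutant CssptCsalc-/- and the wild type (WT), and the series asks how the bHLH transcription factor genes SPATULA and ALCATRAZ act in the cucumber carpel. The alleles, the cultivar and the number of flowers behind each library are unstated in the labels used here, and the mutations were not checked from transcript levels. Each library held 32155631 to 37986853 counted reads, and levels of 1 gene across libraries are given as CPM, the counts scaled to library size.

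The aerial epidermis of plants covers itself with cutin, a polyester of hydroxylated fatty acids, and with waxes made from very-long-chain fatty acids. KCS enzymes catalyse the condensation that opens each round of chain elongation, KCR enzymes the reduction that follows it, and CER, FAR and WSD proteins take the long chains on to waxes. GDSL enzymes form a large family of secreted esterases and acyltransferases that includes the cutin synthases, and LTPs are small secreted proteins that bind lipids. On stigmas and in styles, surface lipids and secreted lipid-binding proteins meet the pollen and the growing pollen tube; in lily, an LTP of the style takes part in pollen tube adhesion.

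Genes known from carpels were detected in every library. The AGAMOUS-named gene Csa6G520410, an identity factor of carpels and stamens, was at 183 to 254 CPM and the HEC3-named gene Csa6G483450, of carpel development in Arabidopsis, at 9.89 to 73.3 CPM. The summed level of 28 genes matched on carpel and style names was 1083 to 1364 CPM, but most of these are MADS-box genes named agamous-like, among them the petal and stamen gene AP3 and genes known from Arabidopsis pollen, so the sum does not mark carpel or style alone. Of 6 genes named for pollen or tapetum, the other cells a flower sample could hold, the summed level was 9.63 to 16.2 CPM. Most of it in each library came from the TAPETUM DETERMINANT 1 gene (Csa1G051700), at 6.41 to 12.5 CPM, so this sum mainly follows that gene.

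One library stood apart. On log2(CPM + 1), Csalc replicate 3 correlated at 0.828 to 0.871 with the other libraries, which correlated with one another at 0.946 to 0.994. It was higher than every other library for 41 of the 88 members with enough reads to test (14 had too few; 46.6%, against 34.8% of all genes tested) and lower than every other library for 15 (17.0%, against 33.8%). On log2(CPM + 1), it was more than 1 above the mean of Csalc replicates 1 and 2 for 30 members (34.1%, against 17.3% of all genes). It was more than 1 below that mean for 8 (9.09%, against 15.5%). On this scale, genes near 1 CPM or below differ by less than their fold. The summed level of its green tissue markers was 597 CPM, against 2953 to 5603 CPM in the other libraries, and that of its epidermal markers was 133 CPM, against 54.3 to 82.0 CPM. The epidermal genes did not move together. In this library the ANTHOCYANINLESS 2 gene (Csa6G074030) was at 51.1 CPM, against 9.56 to 29.1 CPM in the others. The HDG11 gene Csa3G187250 was at 9.29 CPM, against 17.1 to 31.4 CPM. What set this library apart was not tested. Each comparison is therefore given with all 12 libraries and without Csalc replicate 3, which lowered the common biological coefficient of variation of the fit to 0.193, against 0.363.

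**Figure D1:**
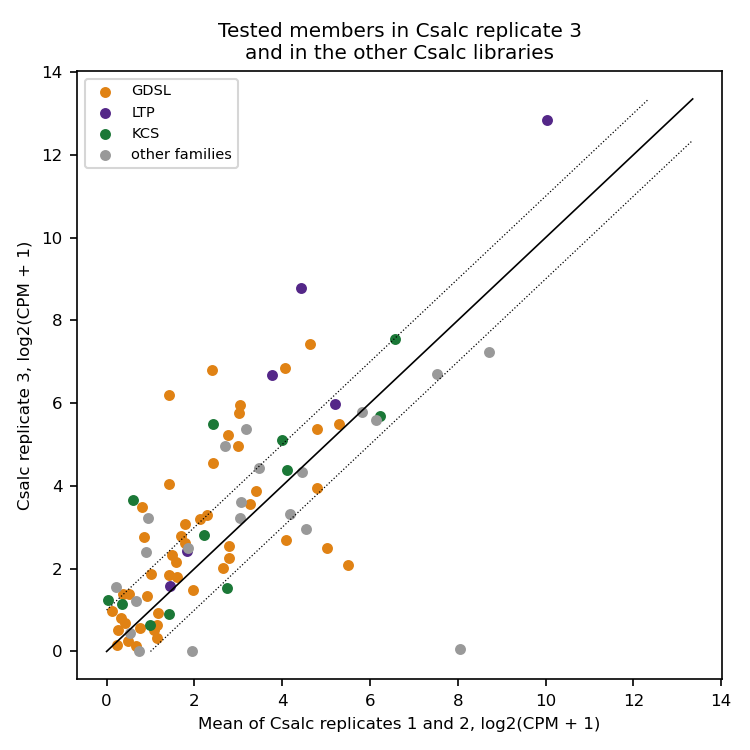
Level of each of the 88 tested members in Csalc replicate 3 (vertical axis) and in the mean of Csalc replicates 1 and 2 (horizontal axis), both in log2(CPM + 1) and coloured by family; the solid line marks equal levels and the dotted lines a step of 1 on this scale. GDSL and LTP genes make up most of the points far above the line, and of the 8 members more than 1 below on this scale in replicate 3, the LPAT gene Csa3G077660 lies farthest down, at 0.0491 CPM.

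Levels of different genes were compared in FPKM, which corrects for gene length. Over the 12 libraries, 4 members averaged at least 100 FPKM, 22 at least 10 FPKM and 41 under 1 FPKM. The most abundant was an nsLTP1 gene (Csa3G728130), with a mean of 1534 FPKM that Csalc replicate 3 dominated at 8843 FPKM. It averaged 450 ± 150 FPKM in Csspt, 3585 ± 4576 in Csalc, 1727 ± 880 in CssptCsalc and 375 ± 101 in WT (SD, n = 3 each). After it came the LPAT gene Csa3G077660, the LPAT2 gene Csa3G812100 and the KCR1 gene Csa2G350250, with means of 195.5, 170.1 and 134 FPKM over the 12 libraries. Next in order were a further nsLTP (Csa4G333620) at 89.5 FPKM, nsLTP2 (CsaUNG028560) at 59.1 FPKM, a CER26-like gene (Csa2G011500) at 44.4 FPKM and KCS11 (Csa1G418240) at 33.7 FPKM. The first of these was also highest in Csalc replicate 3, at 438 CPM, against 182 CPM or less elsewhere. The highest GDSL genes were those named At5g03610 (Csa3G775310) at 30.8 FPKM and At5g14450 (Csa3G840420) at 29.0 FPKM.

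Most calls against WT were in the double mutant. With 12 libraries, 11 of the 88 tested members rose and 6 fell in CssptCsalc against WT (adjusted p under 0.05 in edgeR's quasi-likelihood test), which is 19.3% of the members, against 7.18% of all genes tested. The shares in each direction were 12.5% of members higher, against 3.77% of all genes, and 6.82% lower, against 3.41%. Without Csalc replicate 3, 30 of 91 tested members rose and 12 fell, 46.2% of them, against 36.1% of all genes, and every member called with 12 libraries was called in the same direction. The excess over all genes lay among the rises, at 33.0% of members against 19.2% of all genes, while the falls were at 13.2% against 16.8%. All 3 CssptCsalc libraries lay above all 3 WT libraries in 42 members and below them in 16 of 88, and the same held for 27.3% and 24.4% of all genes. The median log2 fold change was 0.60 over the members and 0.03 over all genes. In whole tissue, fewer cells that express a gene and less of its RNA in each cell cannot be told apart.

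The single mutants showed few changes that passed the test. With 12 libraries, no member was called in Csspt against WT by edgeR (0.00531% of all genes were called higher and 0.0531% lower, 0.0584% in all), with 12 of 88 at an unadjusted p under 0.05, against 7.51% of all genes, and 2 rises and 2 falls called by DESeq2. In Csalc against WT edgeR called 2 falls and no rise (0.159% of all genes were called higher and 0.626% lower, 0.785% in all). There 36 of 88 members were at an unadjusted p under 0.05, against 23.3% of all genes, and DESeq2 called 12 rises and 5 falls. The shares of all genes are those of edgeR, and none was counted for DESeq2, so its counts cannot be set against them. Without Csalc replicate 3, 4 members rose and 7 fell in Csspt, 12.1% of 91, against 4.72% of all genes (1.99% higher and 2.73% lower). In Csalc, 2 rose and 5 fell, 7.69%, against 4.36% of all genes (1.79% higher and 2.57% lower). With Csalc replicate 1 left out in its place, 11 members were called higher and 4 lower in Csalc, where the share of all genes was not counted. The median log2 fold change of the members was 0.16 in Csspt, against 0.02 for all genes, and 0.46 in Csalc, against 0.06, but 0.17 in Csalc without its replicate 3. All these comparisons share the WT libraries.

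**Figure D2:**
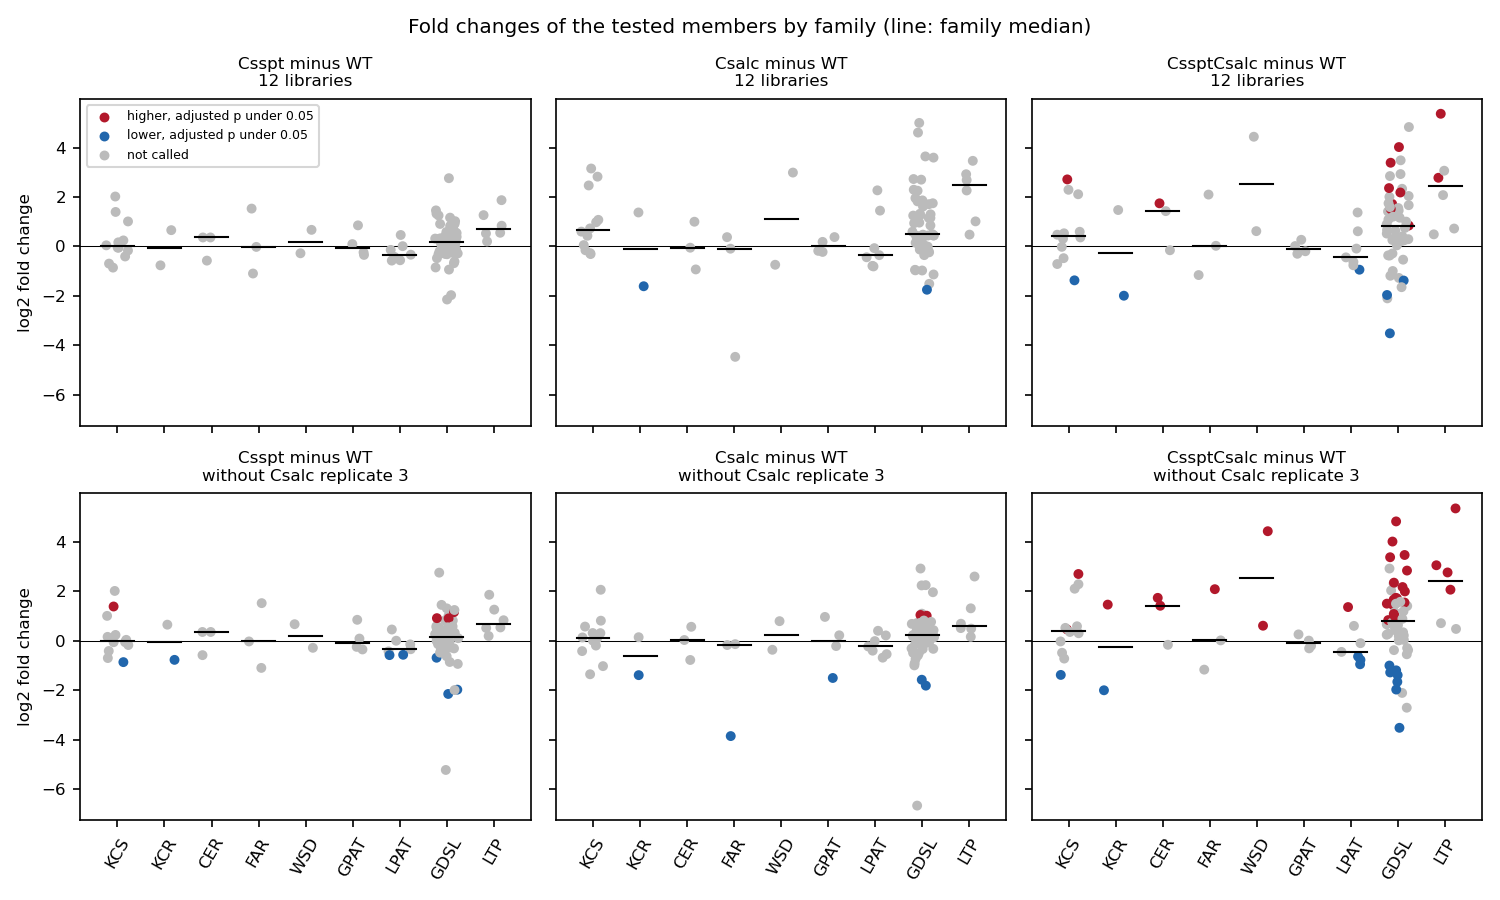
Log2 fold change of each tested member against WT by gene family, in Csspt, Csalc and CssptCsalc (left to right), with all 12 libraries (upper row) and without Csalc replicate 3 (lower row); red and blue points passed an adjusted p of 0.05 and the black line is the family median. With 12 libraries, the LTP median in CssptCsalc lies at 2.43 and the GDSL median at 0.85, with called genes on both sides of 0 among the GDSL genes. The LTP median in Csalc lies at 2.48 with 12 libraries and at 0.60 without Csalc replicate 3.

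Among the enzymes of fatty acid elongation, KCR1 (Csa2G350250) had the furthest fall in CssptCsalc and the only call in Csalc with 12 libraries, and it is also the most abundant of them. KCR1 is the reductase that works in the elongase complex of Arabidopsis. It had 323, 272 and 252 CPM in Csspt, 194, 173 and 104 CPM in Csalc and 104, 117 and 139 CPM in CssptCsalc, against 464, 488 and 487 CPM in WT. Every mutant library was below every WT library. The log2 fold change was -1.996 ± 0.225 in CssptCsalc (adjusted p = 0.00134) and -1.61 ± 0.22 in Csalc (adjusted p = 0.0111; 0.0597 without WT replicate 3 and 0.265 with the Csalc and WT libraries alone in the fit), and in Csspt it was -0.77 ± 0.22 with 12 libraries (adjusted p = 0.333) and -0.77 ± 0.12 without Csalc replicate 3 (adjusted p = 0.0101). In that last fit KCR1 was also lower in CssptCsalc than in either single mutant, with log2 differences of -1.23 ± 0.12 against Csspt (adjusted p = 0.000675) and -0.61 ± 0.13 against Csalc (adjusted p = 0.0186). The other KCR gene, Csa5G591790, rose in CssptCsalc when Csalc replicate 3 was left out. It had 24.5, 24.9 and 11.4 CPM in CssptCsalc, against 5.94, 8.64 and 7.33 CPM in WT (log2 fold change 1.47 ± 0.28, adjusted p = 0.00307 without Csalc replicate 3; 0.159 with it).

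The 12 KCS genes split. KCS20 (Csa3G144140), which serves wax and suberin synthesis in Arabidopsis, had 14.1, 12.6 and 9.14 CPM in Csspt, 16.2, 16.3 and 19.8 CPM in Csalc and 9.63, 7.76 and 7.62 CPM in CssptCsalc, against 23.9, 19.8 and 21.2 CPM in WT. It fell in CssptCsalc by 1.37 ± 0.19 on the log2 scale (adjusted p = 0.00296). It also fell in Csspt in the fit without Csalc replicate 3, by 0.86 ± 0.16 (adjusted p = 0.0192). KCS5 (Csa3G178490), which takes part in wax synthesis in Arabidopsis, had 1.63, 1.21 and 1.51 CPM in Csspt, 1.05, 0.888 and 0.565 CPM in Csalc and 4.08, 4.23 and 2.54 CPM in CssptCsalc, against 0.521, 0.731 and 0.393 CPM in WT. All CssptCsalc libraries exceeded those of the other genotypes, and CssptCsalc exceeded WT by 2.71 ± 0.36 on the log2 scale (adjusted p = 0.00268). KCS5 also rose in Csspt in the fit without Csalc replicate 3, by 1.389 ± 0.305 (adjusted p = 0.0326). Its identifier lies in a run with those of a KCS6 and another KCS5 gene. KCS6 (Csa3G178500) had 3.73, 2.92 and 3.11 CPM in CssptCsalc, against 4.29, 2.67 and 2.91 CPM in WT, with overlapping libraries. KCS11 (Csa1G418240), the most abundant of the family, rose by 0.47 ± 0.10 in CssptCsalc without Csalc replicate 3 (adjusted p = 0.00522; 0.263 with it). KCS4 (Csa2G361630), the next, had libraries that overlapped between CssptCsalc, at 33.5, 72.6 and 52.5 CPM, and WT, at 72.0, 63.1 and 85.4 CPM.

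CER2 and CER26 are relatives of acyltransferases that help the elongase reach the longest chains in Arabidopsis. CER2 (Csa3G892170) had 30.2, 13.2 and 25.3 CPM in CssptCsalc, against 5.56, 7.85 and 7.07 CPM in WT. It rose by 1.75 ± 0.41 on the log2 scale (adjusted p = 0.0297), with all CssptCsalc libraries above all WT libraries. The single mutants, at 11.1, 8.43 and 6.82 CPM in Csspt and 13.2, 7.10 and 20.7 CPM in Csalc, overlapped WT. The rarer CER26 gene (Csa2G147920) rose in CssptCsalc by 1.42 ± 0.46 without Csalc replicate 3 (adjusted p = 0.0342), while the CER26-like gene (Csa2G011500), the most abundant of the 3, had overlapping libraries in every mutant and WT.

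**Figure D3:**
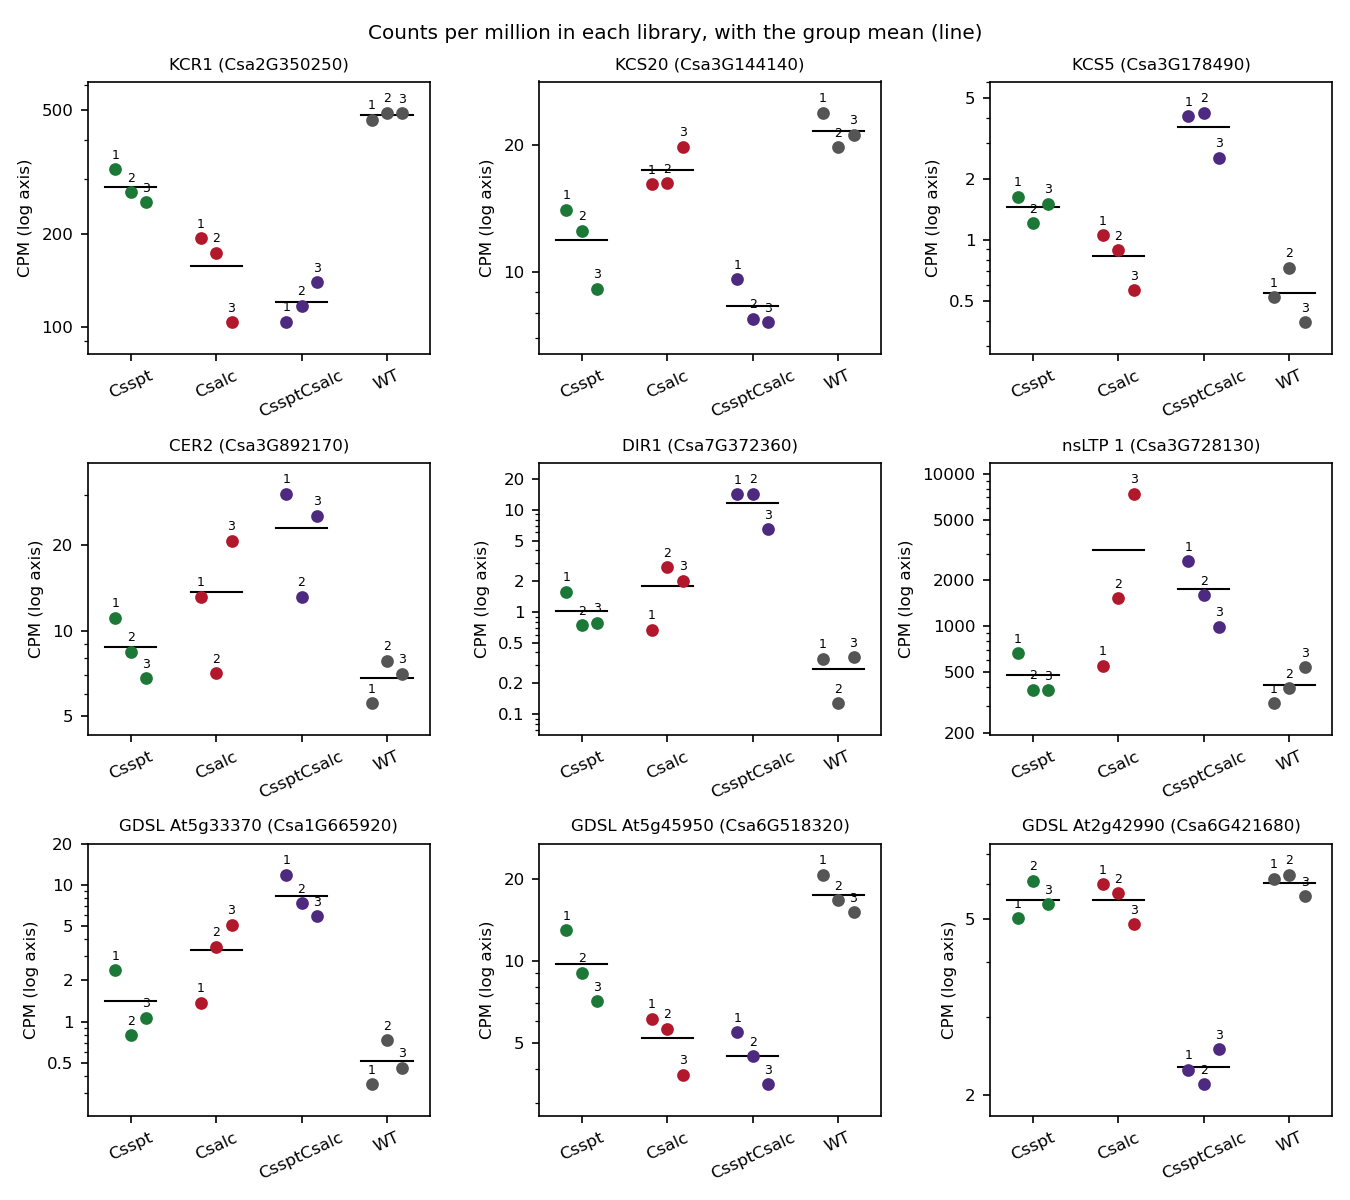
Level of 9 members in each library (points, numbered by replicate) in CPM on a log axis, by genotype, with the group mean as a line. KCR1, KCS20 and the GDSL genes At5g45950 and At2g42990 are below WT in CssptCsalc, and KCS5, CER2, DIR1, nsLTP1 and GDSL At5g33370 above it; At2g42990 overlaps WT in both single mutants, and nsLTP1 reaches 7379 CPM in Csalc replicate 3.

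Fatty acyl-CoA reductases turn long acyl chains into primary alcohols, and one named FAR3 (Csa6G151810) lay on opposite sides of WT in the single mutants. It had 57.2, 14.5 and 12.2 CPM in Csspt, 0.925, 0.414 and 0 CPM in Csalc and 3.85, 2.57 and 6.56 CPM in CssptCsalc, against 8.77, 10.5 and 9.75 CPM in WT. All Csspt libraries were above WT, and all Csalc and CssptCsalc libraries below it. The difference of Csspt from Csalc, a comparison added after these values were seen, was 6.004 ± 1.04 on the log2 scale with 12 libraries (adjusted p = 0.0979; 0.0637% of all genes were called) and 5.38 ± 0.83 without Csalc replicate 3 (adjusted p = 0.0239; 0.498% of all genes were called). Against WT in that fit it fell in Csalc by 3.86 ± 0.80 (adjusted p = 0.0252), while the values in Csspt, 1.52 ± 0.55, and CssptCsalc, -1.17 ± 0.56, did not pass (adjusted p = 0.135 and 0.130). Another alcohol-forming reductase gene, Csa6G152310, had 2.10, 2.78 and 3.48 CPM in CssptCsalc, against 0.869, 0.286 and 0.786 CPM in WT, and passed without Csalc replicate 3 (log2 fold change 2.09 ± 0.72, adjusted p = 0.0425; 0.171 with it). The most abundant reductase gene, Csa1G144330, had 8.95, 8.22 and 7.48 CPM in CssptCsalc, against 8.37, 7.28 and 8.58 CPM in WT, and overlapped WT in the single mutants too. A run of 3 further reductase genes, Csa1G145840, Csa1G145850 and Csa1G145860, had no read in any WT library and 43, 47 and 48 reads in the Csalc group, mostly from replicate 3, and was too low to test.

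**Figure D4:**
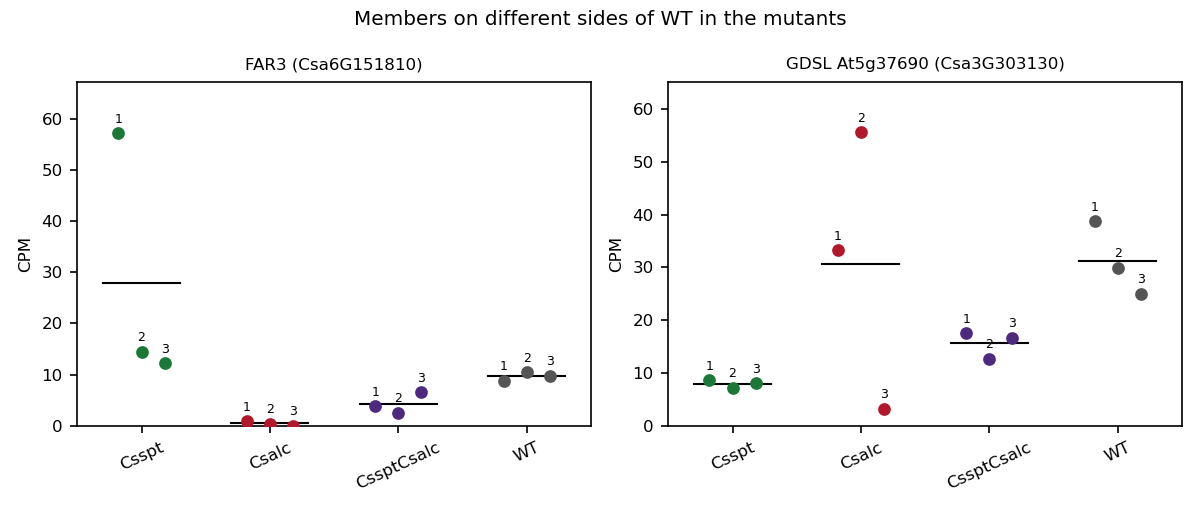
CPM of FAR3 and of the GDSL gene named At5g37690 in each library (points, numbered by replicate), by genotype, with the group mean as a line. FAR3 is above WT in all Csspt libraries and below it in all Csalc and CssptCsalc libraries, whereas At5g37690 is low in Csspt and CssptCsalc and, among the Csalc libraries, in replicate 3.

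WSD1 makes wax esters from such alcohols in Arabidopsis stems. Of the WSD1-named genes, Csa7G073550 had 54.1, 37.0 and 41.3 CPM in CssptCsalc, against 22.7, 34.1 and 29.4 CPM in WT, and Csa7G051300 had 2.10, 2.78 and 1.48 CPM, against 0, 0.286 and 0 CPM. Both were separated from WT and neither was called with 12 libraries (adjusted p = 0.368 and 0.0987), but both rose without Csalc replicate 3 (adjusted p = 0.0423 and 0.00774). The fold change of Csa7G051300, 4.44 ± 1.48 on the log2 scale with 12 libraries, rests on 9 reads in the WT group, all in replicate 2, against 239 in the CssptCsalc group, and no fold can be given without that replicate, since the other WT libraries have no read.

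The acyltransferases of glycerol-3-phosphate gave no call in CssptCsalc, and several of them serve membranes or storage oil, not surfaces. None of the 4 tested GPAT genes was called in CssptCsalc with or without Csalc replicate 3 by edgeR, and none had an unadjusted p under 0.05 with 12 libraries, where 24% of all genes did. GPAT9 (Csa7G024000), an enzyme of storage oil synthesis, had 56.2, 53.1 and 58.1 CPM in CssptCsalc, against 66.0, 60.2 and 65.5 CPM in WT, a log2 fold change of -0.20 ± 0.11 (adjusted p = 0.292). The chloroplast enzyme (Csa3G900970) had 21.9, 16.6 and 15.6 CPM in CssptCsalc, against 16.7, 22.0 and 14.8 CPM in WT, with overlapping libraries. GPAT8 (Csa6G004540), a cutin enzyme in Arabidopsis, had 4.78 and 6.19 CPM in Csalc replicates 1 and 2 but 30.2 CPM in replicate 3, against 14.3, 16.1 and 16.3 CPM in WT. It fell in Csalc only when replicate 3 was left out (log2 fold change -1.51 ± 0.37, adjusted p = 0.0480; -0.18 ± 0.61 with it).

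LPAT enzymes make phosphatidic acid, the precursor of membrane glycerolipids. LPAT4 (Csa2G361360) fell in CssptCsalc, with 13.2, 11.8 and 13.5 CPM, against 22.2, 27.3 and 24.6 CPM in WT (log2 fold change -0.94 ± 0.24, adjusted p = 0.0441). The more abundant LPAT2 (Csa3G812100) had 287, 286 and 277 CPM in Csspt, 405, 426 and 150 CPM in Csalc and 197, 261 and 281 CPM in CssptCsalc, against 455, 379.6 and 419 CPM in WT. In the fit without Csalc replicate 3 it fell in Csspt by 0.57 ± 0.12 (adjusted p = 0.0310) and in CssptCsalc by 0.77 ± 0.12 (adjusted p = 0.00108). The LPAT gene Csa3G077660 was at 0.0491 CPM in Csalc replicate 3, against 205 and 319 CPM in its other replicates and 226 to 359 CPM in WT, and was not called in any mutant.

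GDSL genes made up 49 of the 88 tested members and gave 10 of the 17 calls in CssptCsalc, in both directions. Of these 49, 7 rose and 3 fell in CssptCsalc against WT, or 20.4%, against 19.3% of all members. Of all genes, 3.77% were called higher and 3.41% lower. Without Csalc replicate 3 it was 17 and 7 of 52, or 46.2%, and 46.2% of all members. Of all genes, 19.2% were then called higher and 16.8% lower. The gene named At5g33370 (Csa1G665920), a relative of the Arabidopsis cutin synthases, had 2.37, 0.795 and 1.07 CPM in Csspt, 1.37, 3.52 and 5.13 CPM in Csalc and 11.9, 7.33 and 5.91 CPM in CssptCsalc, against 0.347, 0.731 and 0.458 CPM in WT. Every mutant library exceeded every WT library, and the log2 fold change in CssptCsalc was 4.02 ± 0.61 (adjusted p = 0.00512). At1g33811 (Csa5G650560) had 18.2, 14.5 and 13.7 CPM in Csspt, 10.7, 6.54 and 10.9 CPM in Csalc and 39.5, 27.7 and 27.0 CPM in CssptCsalc, against 5.62, 7.56 and 7.53 CPM in WT. It rose in CssptCsalc by 2.18 ± 0.25 (adjusted p = 0.00134) and, without Csalc replicate 3, in Csspt by 1.16 ± 0.22 (adjusted p = 0.0208). At1g29670 (Csa2G078090) was high in CssptCsalc, with 28.9, 29.7 and 14.1 CPM, against 0.927, 3.69 and 2.32 CPM in WT (log2 fold change 3.39 ± 0.62, adjusted p = 0.0110), and its single mutant libraries overlapped WT. It was also higher than in Csalc, by 3.25 ± 0.61 (adjusted p = 0.0471), and, without Csalc replicate 3, than in Csspt, by 2.37 ± 0.54 (adjusted p = 0.0185).

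Both genes named At3g27950 were above WT in all mutant libraries. Csa5G524860 had 5.05, 3.65 and 3.64 CPM in Csspt, 5.197, 3.61 and 22.3 CPM in Csalc and 13.0, 9.45 and 11.1 CPM in CssptCsalc, against 2.06, 2.03 and 2.42 CPM in WT. Its log2 fold change in CssptCsalc was 2.36 ± 0.58 (adjusted p = 0.0367), and without Csalc replicate 3 it also rose in Csspt, by 0.92 ± 0.21 (adjusted p = 0.0361), and in Csalc, by 1.02 ± 0.23 (adjusted p = 0.0357). The libraries of Csa5G630770 overlapped between the double and the single mutants: without Csalc replicate 3 its log2 fold changes were 0.91 ± 0.19 in Csspt, 1.05 ± 0.21 in Csalc and 1.09 ± 0.19 in CssptCsalc (adjusted p = 0.0274, 0.0207 and 0.00178). The remaining rises with 12 libraries were At3g48460 (Csa1G050100), At3g62280 (Csa3G668600) and At5g03610 (Csa3G775310), by 1.72 ± 0.45, 1.51 ± 0.38 and 0.85 ± 0.22 on the log2 scale (adjusted p = 0.0469, 0.0397 and 0.0444). Further rises without Csalc replicate 3 included a second At1g29670 gene (Csa1G467090), by 4.83 ± 0.76 (adjusted p = 0.00102), and EXL3 (Csa2G346080), of a group named for lipases of the pollen coat, by 2.84 ± 0.75 (adjusted p = 0.0142). Csa1G467090 had 35.8, 26.8 and 4.71 CPM in CssptCsalc, against 0.232, 0.921 and 1.21 CPM in WT, and stood at 72.1 CPM in Csalc replicate 3. EXL3 had 61.0, 19.5 and 6.54 CPM in CssptCsalc, against 2.58, 5.97 and 3.54 CPM in WT, and its 12-library log2 fold change of 2.85 was 1.68 without CssptCsalc replicate 1.

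Of the GDSL genes that fell with 12 libraries, At5g45950 (Csa6G518320) was the most abundant and fell in Csalc and in CssptCsalc. It had 12.9, 9.04 and 7.10 CPM in Csspt, 6.12, 5.62 and 3.81 CPM in Csalc and 5.45, 4.44 and 3.51 CPM in CssptCsalc, against 20.7, 16.7 and 15.1 CPM in WT. The log2 fold change was -1.97 ± 0.28 in CssptCsalc (adjusted p = 0.00362) and -1.75 ± 0.28 in Csalc (adjusted p = 0.0214), and in Csspt all libraries were below WT without passing (-0.85 ± 0.27, adjusted p = 0.409). The Csalc call ended when Csalc replicate 2 or any single WT library was left out (adjusted p = 0.0563 to 0.0889), and with the Csalc and WT libraries alone in the fit (0.195). At2g30310 (Csa2G431080) had 0.555, 1.09 and 0.503 CPM in Csspt, 0.925, 0.888 and 1.52 CPM in Csalc and 0.406, 0.161 and 0.257 CPM in CssptCsalc, against 3.56, 2.38 and 3.63 CPM in WT. It fell in CssptCsalc by 3.52 ± 0.47 (adjusted p = 0.00268) and, without Csalc replicate 3, in Csspt by 2.15 ± 0.38 and in Csalc by 1.82 ± 0.43 (adjusted p = 0.0149 and 0.0417).

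The gene named At2g42990 (Csa6G421680) fell in the double mutant and was there also below both single mutants. It had 5.02, 6.10 and 5.40 CPM in Csspt, 5.99, 5.71 and 4.87 CPM in Csalc and 2.28, 2.12 and 2.54 CPM in CssptCsalc, against 6.17, 6.29 and 5.63 CPM in WT. The log2 difference of CssptCsalc was -1.38 ± 0.17 from WT (adjusted p = 0.00182), -1.25 ± 0.17 from Csspt (adjusted p = 0.0152) and -1.26 ± 0.17 from Csalc (adjusted p = 0.0174). Csspt and Csalc each differed from WT by -0.13 ± 0.17, with overlapping libraries. Its departure from the sum of the single mutant effects was -1.13 ± 0.24 with 12 libraries (adjusted p = 0.592 in edgeR) and -1.21 ± 0.21 without Csalc replicate 3 (adjusted p = 0.0826), and did not pass. The next identifier, Csa6G421670 (At2g04570), went the other way, with 3.83, 3.45 and 1.46 CPM in CssptCsalc, against 0.666, 0.953 and 0.982 CPM in WT, and rose by 1.74 ± 0.44 without Csalc replicate 3 (adjusted p = 0.0111; 0.0796 with it).

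Further GDSL genes fell once Csalc replicate 3 was left out. At5g37690 (Csa3G303130) had 8.66, 7.16 and 8.01 CPM in Csspt, 33.2, 55.6 and 3.22 CPM in Csalc and 17.5, 12.7 and 16.7 CPM in CssptCsalc, against 38.7, 29.9 and 24.98 CPM in WT. It fell by 1.98 ± 0.22 in Csspt (adjusted p = 0.00335) and by 1.00 ± 0.22 in CssptCsalc (adjusted p = 0.00518), and the double mutant was above Csspt by 0.98 ± 0.22 (adjusted p = 0.0179). GDSL lipase 5 (Csa3G646550) had 32.9, 24.6 and 25.1 CPM in Csspt, 32.7, 29.9 and 4.67 CPM in Csalc and 15.9, 18.3 and 23.8 CPM in CssptCsalc, against 45.9, 41.5 and 44.8 CPM in WT. It fell by 0.69 ± 0.15 in Csspt (adjusted p = 0.0350) and by 1.20 ± 0.16 in CssptCsalc (adjusted p = 0.000405). At1g09390 (Csa3G669600) had 5.07, 2.36 and 2.57 CPM in CssptCsalc, against 6.66, 6.86 and 10.7 CPM in WT, and fell by 1.28 ± 0.33 (adjusted p = 0.0131), whereas Csalc replicate 3 was at 110.4 CPM. With 12 libraries none of the 3 passed in any mutant.

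**Figure D5:**
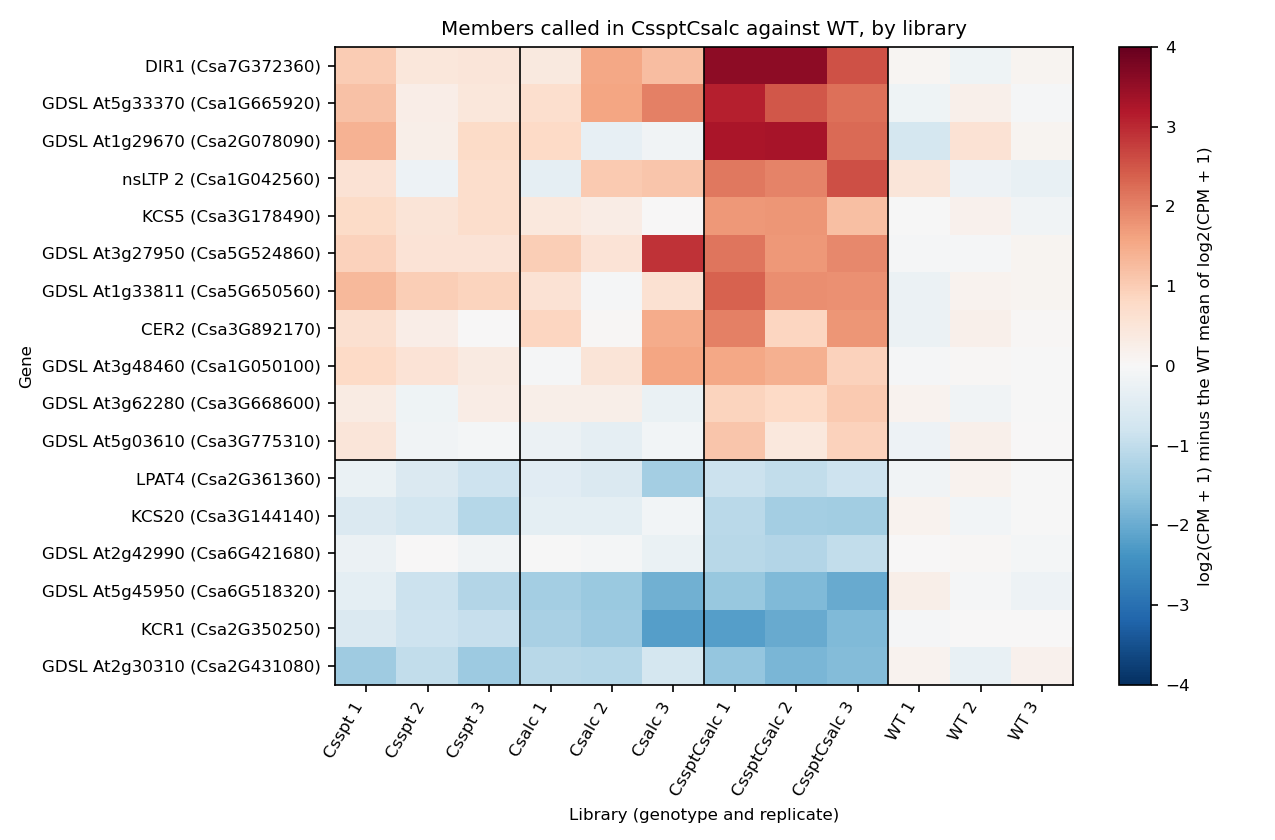
The 17 members called in CssptCsalc against WT with 12 libraries (rows, 11 higher above the line and 6 lower below it) in each library (columns); colour gives log2(CPM + 1) minus the WT mean on that scale. The CssptCsalc columns are the most strongly coloured for most rows, and the single mutants show paler shifts to the same side for most rows. Csalc replicate 3 is shifted beyond every CssptCsalc library for At3g27950, At3g48460, LPAT4 and, narrowly, KCR1.

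The largest called rise was in a lipid-transfer protein gene. All 6 tested LTP genes were higher in every CssptCsalc library than in every WT library, which held for 27.3% of all genes. Of the 6, 2 were called higher with 12 libraries (3.77% of all genes) and 4 without Csalc replicate 3 (19.2% of all genes). The family median in CssptCsalc was 2.43 on the log2 scale with 12 libraries. It was 0.695 in Csspt and 2.48 in Csalc, but 0.60 in Csalc without its replicate 3. The gene with the largest called rise was DIR1 (Csa7G372360), which in Arabidopsis carries a lipid-linked signal of systemic acquired resistance. It had 1.57, 0.737 and 0.785 CPM in Csspt, 0.670, 2.75 and 2.02 CPM in Csalc and 14.3, 14.3 and 6.48 CPM in CssptCsalc, against 0.347, 0.127 and 0.360 CPM in WT. All mutant libraries were above WT, and all CssptCsalc libraries above the single mutants. The log2 fold change was 5.37 ± 0.66 against WT (adjusted p = 0.00181), 3.499 ± 0.587 against Csspt (adjusted p = 0.0366) and 2.68 ± 0.56 against Csalc (adjusted p = 0.0594; 0.0187 without Csalc replicate 3). The nsLTP2 gene Csa1G042560 rose by 2.78 ± 0.60 (adjusted p = 0.0220), with 9.86, 8.81 and 13.8 CPM in CssptCsalc, against 2.52, 1.14 and 1.05 CPM in WT.

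The most abundant LTP genes varied widely between libraries. nsLTP1 (Csa3G728130) had 669, 384 and 381 CPM in Csspt, 551, 1525 and 7379 CPM in Csalc and 2673, 1599 and 993 CPM in CssptCsalc, against 313, 392 and 541 CPM in WT. It held 12.8% to 75.4% of the summed CPM of the 102 members in single libraries, so that the members' sum followed it: without it the sum was 1516 to 2407 CPM in the mutants and 2047 to 2151 CPM in WT. All CssptCsalc libraries were above WT, and the log2 fold change was 2.08 ± 0.78 with 12 libraries (adjusted p = 0.139) and 2.07 ± 0.45 without Csalc replicate 3 (adjusted p = 0.00524). The nsLTP Csa4G333620 had 21.4, 20.8 and 35.3 CPM in Csspt, 15.1, 25.6 and 438 CPM in Csalc and 182, 94.6 and 86.3 CPM in CssptCsalc, against 12.02, 13.3 and 17.97 CPM in WT. With that library left out it was higher in CssptCsalc than in WT by 3.06 ± 0.35 (adjusted p = 0.000199), than in Csspt by 2.23 ± 0.34 (adjusted p = 0.00375) and than in Csalc by 2.57 ± 0.40 (adjusted p = 0.00570). The remaining tested genes, nsLTP2 (CsaUNG028560) and an At5g64080-like gene (Csa7G061200), were not called in any mutant by either fit.

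Of the 17 members called in CssptCsalc with 12 libraries, 9 were called whichever single library was left out: KCS20, KCS5, KCR1, DIR1 and the GDSL genes At5g33370, At1g33811, At2g30310, At2g42990 and At5g45950. The other 8 lost the call under at least 1 omission, always with the same direction. At1g29670 (Csa2G078090) lost it without WT replicate 3 (adjusted p = 0.0590). CER2 (Csa3G892170) lost it without CssptCsalc replicate 1 or 3 or any WT library (adjusted p = 0.0856 to 0.120), and nsLTP2 (Csa1G042560) without any one CssptCsalc library or WT replicate 2 or 3 (0.0511 to 0.0975). Leaving out any one WT library ended the call of each of the next 5. LPAT4 (Csa2G361360) lost it besides without any one CssptCsalc library or Csspt replicate 2 or 3 (up to 0.139), and At3g62280 (Csa3G668600) without any one CssptCsalc library or Csspt replicate 1 or 3 (up to 0.145). At3g27950 (Csa5G524860) lost it without any one CssptCsalc or Csspt library (up to 0.128), and At3g48460 (Csa1G050100) without any of these or Csalc replicate 2 (up to 0.152). At5g03610 (Csa3G775310) lost it without CssptCsalc replicate 1 or 3, Csspt replicate 2 or 3, or Csalc replicate 1 or 2 (up to 0.168). Calls made without Csalc replicate 3 were not tested with a second library left out.

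The double mutant was then set against each single mutant. With 12 libraries, DIR1 rose and At2g42990 fell against Csspt (2 of 88 members; 0.117% of all genes were called higher and 0.244% lower, 0.361% in all). Against Csalc, At1g29670 (Csa2G078090), KCS5 and At1g33811 rose and KCS20 and At2g42990 fell (5 of 88; 0.462% of all genes higher and 0.249% lower, 0.711% in all). Without Csalc replicate 3, 23 members rose and 4 fell against Csspt (29.7% of 91, against 14.4% of all genes, 7.82% higher and 6.59% lower). Against Csalc, 16 rose and 7 fell (25.3%, against 11.2% of all genes, 6.24% higher and 4.94% lower). All 7 calls with 12 libraries were called in the same direction there, but each ended when any CssptCsalc library was left out with Csalc replicate 3 kept. With the CssptCsalc and Csalc libraries alone in the fit, 0 members were called higher and 0 lower against Csalc. At1g33811 and At2g42990 against Csalc ended under no other omission (adjusted p up to 0.0632 and 0.0697), and At2g42990 against Csspt ended also without Csspt replicate 2 or 3 (up to 0.101). DIR1 ended also without these or any WT library (up to 0.233), At1g29670 without these, Csalc replicate 2 or any WT library (up to 0.157), KCS5 without these, Csalc replicate 2 or WT replicate 1 or 3 (up to 0.119) and KCS20 without Csspt replicate 2, Csalc replicate 1 or 2 or any WT library (up to 0.124).

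The double mutant's departure from the sum of the single mutant effects on the log2 scale was not called for any member by edgeR, with or without Csalc replicate 3. With 12 libraries it was at an unadjusted p under 0.05 in 12 of 88, and DESeq2 called 1 fall (0% of all genes called by edgeR and 6.76% at the unadjusted level). Without Csalc replicate 3 it was so in 19 of 91 (0.0262% of all genes called and 13.9% at the unadjusted level).

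Other genes of cuticle formation, 62 by name, gave 6 rises and 4 falls among 57 tested in CssptCsalc with 12 libraries, 17.5% of them, against 7.18% of all genes. Without Csalc replicate 3 it was 17 and 11 among 59, 47.5%, against 36.1% of all genes. The shares of the members were 19.3% and 46.2%, and the difference between the lists was not tested. The list also took in genes with other roles, such as glycolipid transfer proteins and peroxygenases. Cytochrome P450 86A22 (Csa5G153010), of the family that hydroxylates fatty acids for cutin, had 128, 81.0 and 92.6 CPM in CssptCsalc, against 670.3, 597 and 710.0 CPM in WT (log2 fold change -2.72 ± 0.26, adjusted p = 0.000632). Cytochrome P450 77A3 (Csa6G044530), of another cutin-related family, fell by 2.24 ± 0.12 (adjusted p = 2.4e-05). The cutin exporter ABCG32 (Csa2G005890) rose by 2.61 ± 0.27 (adjusted p = 0.000800). With 12 libraries these genes were also called in single mutants. ABCG32 rose in Csalc by 2.93 ± 0.27 (adjusted p = 0.00166), and 86A22 fell there by 1.77 ± 0.25 (adjusted p = 0.0125). Cytochrome P450 77A3 fell in Csspt by 1.13 ± 0.12 and in Csalc by 0.885 ± 0.118 (adjusted p = 0.0126 and 0.00960). The ABCG32 call in Csalc held under every single omission, and the single mutant calls of 86A22 and 77A3 ended in 1 to 6 of 12. CER3 (Csa1G294020), also on the list, rose in Csalc by 2.11 ± 0.23 (adjusted p = 0.00448), and that call held under every single omission too. The calls of 86A22, 77A3 and ABCG32 in CssptCsalc held under every single omission. Some rarer cytochrome P450 genes of the list went the other way. In CssptCsalc 86A2 (Csa6G004550) rose by 1.63 ± 0.36 and 94A1 (Csa3G818260) by 1.88 ± 0.36 (adjusted p = 0.0244 and 0.0140). Both calls ended without any one WT library (up to 0.103 and 0.0724). Without Csalc replicate 3, 77A4 (Csa6G514850) rose too (adjusted p = 0.0153), with 1.17, 0.348 and 0.371 CPM, against 0 CPM in WT. The MAH1-named gene Csa6G487020, an alkane hydroxylase of wax synthesis in Arabidopsis, fell by 1.62 ± 0.38 (adjusted p = 0.0321; up to 0.110 without CssptCsalc replicate 1 or 2, Csspt replicate 2 or any WT library). Other MAH1-named genes were mixed. The libraries of Csa6G487560, the most abundant, and Csa6G487520 overlapped between CssptCsalc and WT. Csa6G487530 was above WT, with 4.08, 4.42 and 2.91 CPM in CssptCsalc, against 1.68, 2.19 and 1.47 CPM. Csa6G487010 was at 0 CPM in CssptCsalc, against 0.203, 0.0635 and 0.131 CPM in WT. LACS1 (Csa3G535120), which activates long fatty acids for wax and cutin, had 7.63, 6.99 and 6.45 CPM in CssptCsalc, against 0.290, 0.381 and 0.557 CPM in WT. It rose by 4.09 ± 0.78 (adjusted p = 0.0136), and the call ended without any one WT library (0.0539 to 0.0710). The HOTHEAD-named gene Csa3G848300, of cutin synthesis, had 33.6, 16.4 and 19.2 CPM in CssptCsalc, against 1.30, 3.21 and 1.96 CPM in WT, and rose by 3.42 ± 0.84 (adjusted p = 0.0379; up to 0.143 in the 9 omissions that ended the call, each CssptCsalc, Csspt and WT library). The more abundant HOTHEAD-named gene Csa7G451340 went the other way, with 69.3, 82.85 and 92.9 CPM in CssptCsalc, against 145.5, 168.3 and 181 CPM in WT. Without Csalc replicate 3 it fell by 1.02 ± 0.13 (adjusted p = 0.000384), while the rarer HOTHEAD-named gene Csa5G156120 rose by 3.79 ± 1.06 (adjusted p = 0.0189).

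Some markers of other cells moved in the double mutant too. The summed level of 45 green tissue genes was 5603, 4932 and 4709 CPM in CssptCsalc, against 3310, 3130 and 2983 CPM in WT. Of 43 tested, 33 were above WT in every CssptCsalc library (27.3% of all genes were), and 6 were called higher (3.77% of all genes). Without Csalc replicate 3, 31 of 44 were called higher and 2 lower (19.2% and 16.8% of all genes). The sum was 3986, 3030 and 2953 CPM in Csspt and 4118, 4149 and 597 CPM in Csalc. Without Csalc replicate 3, 5 of 44 were called higher in Csalc (1.79% of all genes). The summed level of 9 epidermal genes was 69.0, 82.0 and 62.0 CPM in CssptCsalc, against 54.3, 55.4 and 66.4 CPM in WT, with overlap. Of these, 1 was called higher and 1 lower (3.77% and 3.41% of all genes), and 4 and 2 without Csalc replicate 3 (19.2% and 16.8%). No epidermal gene and 1 green tissue gene was at 0 in some library. Of the genes matched on carpel and style names, 24 were tested with 12 libraries, 1 was called higher and 6 lower, 29.2% of them, against 7.18% of all genes, and 4 were at 0 in some library. Without Csalc replicate 3, 3 of 25 were called higher and 9 lower, 48.0%, against 36.1% of all genes. None of the 4 tested pollen or tapetum genes was called, and 1 of 6 was at 0 in some library. The part of these shifts in the members' changes was not tested.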

How the data were processed

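RNA was extracted with Trizol and sequenced from NEBNext libraries, per the labels' protocols. HISAT2, HISAT and DESeq2 are named in the submitters' processing notes; their versions, the genome build, the annotation and the strand setting were not given in the sources used here. Raw read counts and FPKM per gene stand in the table that the authors deposited, per the file headers, with Swiss-Prot names; its DM columns were read as the double mutant. Members and gene lists were chosen with earlier results of these data known. The named genes were the 2 most abundant per family, the members called in each comparison (up to 10 each way against WT with 12 libraries, up to 8 without Csalc replicate 3 at 2 FPKM or more, up to 5 otherwise, and 2 per family) and up to 3 pathway genes called each way; Csa3G178500, Csa6G152310, Csa6G421670, Csa2G147920, CsaUNG028560, Csa7G061200 and the FAR run were added after their values were seen.

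The test was edgeR's quasi-likelihood test on the counts (edgeR 4.0.16, R 4.3.3; filterByExpr with a minimum count of 10, TMM scaling, 4 genotypes in 1 fit of 12 libraries, no covariate), with Benjamini-Hochberg adjustment over all genes tested and a threshold of 0.05. CPM values are TMM-scaled; the errors of log2 fold changes are standard errors from the F statistic. Alternatives were DESeq2 1.42.0, RLE size factors, no filter, a replicate block, only the compared groups, and leaving out each library. Replicates of one genotype differed beyond sampling noise in every pair. Counting error is small at this depth except for genes under about 1 CPM. Reads of near-identical neighbouring copies may have been split between them: 25 members lie in 11 runs of consecutive identifiers. Sequences were not used here.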

Additional observations from a re-analysis of the deposited data

Results flagged for a closer look

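The FAR3-named gene Csa6G151810, an alcohol-forming fatty acyl-CoA reductase, lay on opposite sides of WT in the mutants, with no overlap of libraries. Its log2 fold change against WT was 1.53 ± 0.83 in Csspt (adjusted p = 0.759), -4.47 ± 0.99 in Csalc (adjusted p = 0.0793) and -1.16 ± 0.83 in CssptCsalc (adjusted p = 0.424) with 12 libraries in edgeR. The difference between Csspt and Csalc, tested after the values were seen, passed only without Csalc replicate 3 (adjusted p = 0.0239, against 0.0979 with 12 libraries). Csspt replicate 1, at 57.2 CPM, was far above its replicates at 14.5 and 12.2 CPM.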

How the results depend on the processing

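RLE size factors and no filter on low counts left every count of calls within 1.5 times. Counts are given as higher and lower. Shares of all genes were counted only for edgeR with 12 libraries and without Csalc replicate 3. The counts from other fits therefore have no such share beside them. DESeq2 called 2 and 2 members in Csspt against WT, 12 and 5 in Csalc, 20 higher in CssptCsalc, 11 and 3 in CssptCsalc against Csspt, 11 higher against Csalc, and 1 lower for the interaction. With only the compared groups in the fit, 4 and 6 were called in Csspt, 0 lower in Csalc, 33 and 13 in CssptCsalc, 20 and 3 against Csspt, and 0 and 0 against Csalc. The replicate block gave 6 higher in CssptCsalc against WT, 0 higher against Csspt, and 0 and 0 against Csalc. The numbers do not pair the samples: deviations of the 18 same-numbered pairs correlated at -0.315 to 0.279, with 4 over 0.1, and 3 of 12 libraries correlated best with their own number. Leaving out 1 library gave 0 to 4 higher and 0 to 7 lower in Csspt, 0 to 11 and 0 to 5 in Csalc, 4 to 30 and 5 to 12 in CssptCsalc, 0 to 23 and 0 to 4 against Csspt, 0 to 16 and 0 to 7 against Csalc, and 0 and 0 for the interaction; the upper end came without Csalc replicate 3, apart from the 11 higher in Csalc, without its replicate 1, and the 4 higher in CssptCsalc came without WT replicate 3. GPAT8 (Csa6G004540) in Csalc changed sign, at -0.18 with 12 libraries, 0.23 without Csalc replicate 1 and 0.17 without Csalc replicate 2; without Csalc replicate 3 it was called at -1.51. The causes were not tested. Genes near 1 CPM or below, such as WSD1 Csa7G051300, rest on few reads, and 14 members were too low to test.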
